A study of Rattus norvegicus with 15 samples.

Results

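Alfacalcidol and paricalcitol, a pair of vitamin D receptor agonists given in chronic kidney disease, were compared for their gene expression in the aorta of uremic rats. The 6 arrays compared were the 3 of nephrectomized rats given alfacalcidol (NX-alfacalcidol) and the 3 of nephrectomized rats given paricalcitol (NX-paricalcitol), out of 15 in the series, and all 15739 features of the value table entered the comparison. NX-alfacalcidol were Sprague Dawley rats with 5/6 nephrectomy given alfacalcidol at 0.04 µg/kg. NX-paricalcitol were Sprague Dawley rats with the same nephrectomy given paricalcitol at 0.08 µg/kg. VS-105, another agonist, was given to nephrectomized rats at 0.01 µg/kg (NX-VS-105). NX-vehicle rats had the nephrectomy and received vehicle, and sham rats had normal kidneys and no treatment. Treatment was by intraperitoneal injection 3 times per week over 12 days. Each array carried aortic RNA pooled from 2 rats of 1 group, and pools were drawn at random, so the spread between arrays is a spread between pools. Because each compound was given at its own dose, compound and dose cannot be told apart.

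The vitamin D receptor is a nuclear receptor that pairs with retinoid X receptors on DNA and switches target genes on or off. It is present in cells of the vessel wall and in immune cells. Alfacalcidol lacks the side chain hydroxyl of the active hormone and is hydroxylated in liver to calcitriol, whereas paricalcitol is active as given, carries an ergocalciferol side chain and lacks the exocyclic methylene of the A ring. A circadian clock also runs in the aorta. Its activators, Bmal1 with Clock or Npas2, bind E-boxes and switch on Per, Cry, Nr1d and Ciart genes, whose products repress the activators. REV-ERB receptors, the products of Nr1d genes, act on Bmal1 through ROR elements. The clock's D-box factors Dbp, Tef and Nfil3 carry its rhythm to other genes.

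The promoters of 4 clock genes are shown because these genes had the smallest p among clock genes with a promoter in the RefSeq table used (build GRCr8), each as 250 bases before to 50 bases after the start of the gene. Capitals mark matches, on either strand, to an E-box (CACGTG), an E-prime box (CACGTT), a D-box (TTANGTAA) or the core of a ROR element (TAGGTCA). The Bmal1 window lies at chr1:176766078-176766377 on the + strand, that of Ciart at chr2:186112197-186112496 on the - strand, that of Per2 at chr9:99496944-99497243 on the - strand and that of Tef at chr7:115206577-115206876 on the + strand.
Bmal1: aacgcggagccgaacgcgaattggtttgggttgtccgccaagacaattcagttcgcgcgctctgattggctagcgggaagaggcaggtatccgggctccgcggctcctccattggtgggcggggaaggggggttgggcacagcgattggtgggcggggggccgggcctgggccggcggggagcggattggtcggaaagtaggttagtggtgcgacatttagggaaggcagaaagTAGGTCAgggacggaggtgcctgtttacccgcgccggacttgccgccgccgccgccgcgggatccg
Ciart: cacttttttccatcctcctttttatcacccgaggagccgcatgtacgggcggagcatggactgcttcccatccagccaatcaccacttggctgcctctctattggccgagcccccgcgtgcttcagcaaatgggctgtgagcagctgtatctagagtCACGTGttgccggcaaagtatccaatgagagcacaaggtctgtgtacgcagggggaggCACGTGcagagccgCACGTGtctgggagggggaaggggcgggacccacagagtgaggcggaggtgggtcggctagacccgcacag
Per2: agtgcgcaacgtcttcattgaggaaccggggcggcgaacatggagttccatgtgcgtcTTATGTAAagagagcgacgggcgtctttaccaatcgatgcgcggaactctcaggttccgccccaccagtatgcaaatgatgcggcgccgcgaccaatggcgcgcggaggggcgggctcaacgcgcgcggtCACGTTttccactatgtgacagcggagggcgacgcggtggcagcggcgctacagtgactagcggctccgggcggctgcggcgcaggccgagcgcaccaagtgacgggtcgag
Tef: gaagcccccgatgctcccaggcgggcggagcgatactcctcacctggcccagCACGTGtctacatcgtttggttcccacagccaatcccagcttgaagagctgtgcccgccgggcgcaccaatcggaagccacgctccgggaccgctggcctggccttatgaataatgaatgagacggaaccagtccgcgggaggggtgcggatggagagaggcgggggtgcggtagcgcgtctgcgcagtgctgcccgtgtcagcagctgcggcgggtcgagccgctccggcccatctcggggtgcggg
Bmal1 holds 1 ROR element core, Ciart 3 E-boxes, Per2 1 E-prime box and 1 D-box, and Tef 1 E-box. Among all 33469 RefSeq promoters of this length, 6.42% held an E-box, 4.83% an E-prime box, 2.24% a D-box and 2.63% the ROR element core. Of the 26 clock and clock output genes measured, 22 had a promoter in the table, and 9 of these held at least 1 of the 4 motifs. Wee1 and Cry1 were not among the 22. A gene with more than 1 promoter was counted if any of them held a motif, whereas the shares above count single promoters. The share of all promoters with any of the 4 motifs was not computed, so the 9 genes have no background beside them. A match is a description of these letters and not evidence of binding.

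The 6 arrays were alike over most features. Their pairwise correlations over all features lay between 0.971 and 0.989, their medians between 2.53 and 2.64 (log2), and the differences between alfacalcidol and paricalcitol had a median of 0.03 with quartiles at -0.09 and 0.14 (log2). Markers of contractile smooth muscle, the main cell of the aortic wall, were present, with a mean over 17 genes of 7.50 to 7.77 in NX-alfacalcidol and 7.23 to 7.61 in NX-paricalcitol arrays. White adipocyte markers, over 16 genes, varied widely within both groups, from 3.38 to 5.04 in NX-alfacalcidol and from 3.72 to 5.75 in NX-paricalcitol arrays. The lowest value of NX-alfacalcidol array 2 was -2.71, while it was at or below -5.03 on each of the other 5 arrays. Among the 422 features whose mean over the 6 arrays lay under -2.71, 90.8% had a positive difference. Arrays outside this pair that enter the same fit stood apart for other tissues. On NX-VS-105 array 1, skeletal muscle markers, over 23 genes, averaged 3.70, against -0.11 to 0.90 on the other 14 arrays, and cardiac muscle markers, over 10 genes, averaged 1.58, against -0.69 to 0.11. On NX-vehicle array 3, intestinal epithelium markers, over 17 genes, averaged 2.82, against -3.23 to 0.09 elsewhere.

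Between alfacalcidol and paricalcitol, 7 of 15739 features passed at an adjusted p under 0.05 (0.0445%) by limma with Benjamini-Hochberg adjustment. Wee1 and Slc7a13 were higher in NX-alfacalcidol (0.0127% of features), and Bmal1, Arsi, Bcl3, Evi2a and the unnamed feature LOC498276 were lower (0.0318%). At an unadjusted p under 0.05 there were 733 features (4.66%), with 326 higher (2.07%) and 407 lower (2.59%) in NX-alfacalcidol. A positive difference was found for 57.8% of features. All 3 NX-alfacalcidol arrays lay above all 3 NX-paricalcitol arrays for 939 features (5.97%), and below them for 628 (3.99%). Among the 50 features with the smallest p, 14 were higher and 36 lower in NX-alfacalcidol. The count changed with the array left out. It was 0 without NX-paricalcitol array 1, 2 or 3 and without NX-alfacalcidol array 2 or 3. These 5 limma fits, each with 2 arrays left in 1 of the groups compared, had 519 to 770 features at an unadjusted p under 0.05. The count was 1 without sham array 3 or without NX-VS-105 array 1, 5 without NX-vehicle array 3, and 9, of which 2 were among the 7, without NX-alfacalcidol array 1. With the 6 arrays fitted alone it was 0, with adjusted p between 0.0547 and 0.241 for the 7 features and 871 features at an unadjusted p under 0.05. Each of the 7 differences kept its sign in all of these fits.

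**Figure D1:**
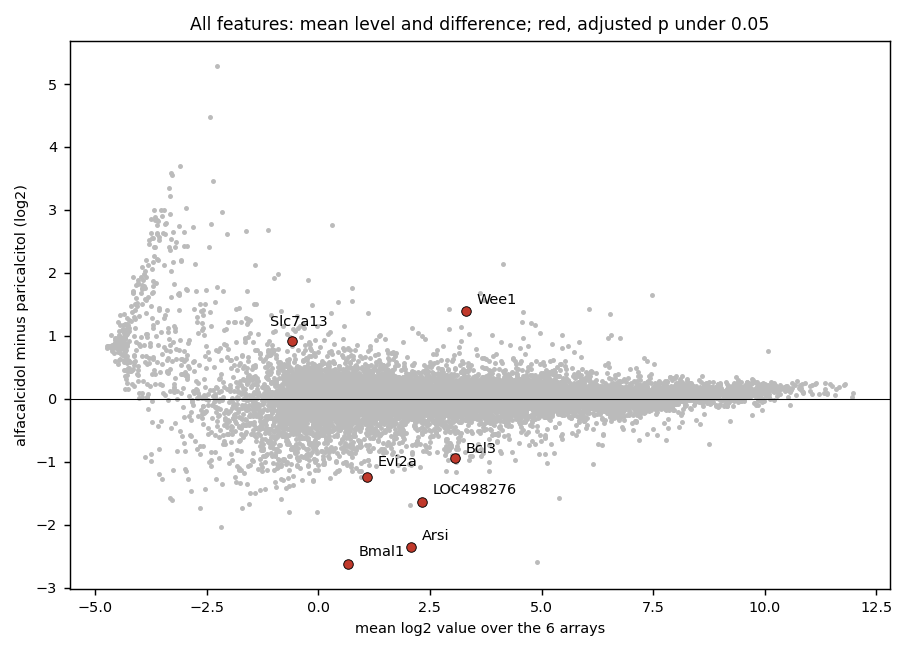
All 15739 features, with the mean log2 value over the 6 arrays on the horizontal axis and alfacalcidol minus paricalcitol (log2) on the vertical axis. The 7 features with an adjusted p under 0.05 are red: Wee1 and Slc7a13 lie above 0 and Bmal1, Arsi, LOC498276, Evi2a and Bcl3 below it, and the features under -2.71 lean upward.

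Bmal1, the activator that pairs with Clock or Npas2, had the smallest p of all features. Its log2 values were -0.62, -0.94 and -0.38 in NX-alfacalcidol, against 1.83, 1.83 and 2.25 in NX-paricalcitol. The groups lay far apart, and Bmal1 was 6.14-fold lower in NX-alfacalcidol, a difference of -2.62 ± 0.31 (log2, SE; 95% interval -3.28 to -1.96; limma, adjusted p = 0.0209). Bmal1 averaged 0.20 ± 0.31 in NX-VS-105, 1.95 ± 0.64 in NX-vehicle and 2.37 ± 0.42 in sham aortas (SD, n = 3 each), so NX-paricalcitol at 1.97 ± 0.24 lay beside NX-vehicle. Against NX-vehicle, whose 3 arrays serve both comparisons, the difference of Bmal1 was -2.59 for NX-alfacalcidol (limma, adjusted p = 0.0148) and 0.03 for NX-paricalcitol (adjusted p = 0.976). Both partners of Bmal1 had all NX-alfacalcidol arrays below all NX-paricalcitol arrays without passing. Npas2 read 2.29, 2.28 and 2.71 in NX-alfacalcidol and 3.11, 3.31 and 3.40 in NX-paricalcitol, a difference of -0.85 ± 0.23 (SE; limma, adjusted p = 0.48). Clock read -0.44, -0.09 and -0.06 in NX-alfacalcidol and 0.12, 0.37 and 0.08 in NX-paricalcitol. The difference of Clock was -0.39 ± 0.18 (SE), with an unadjusted p of 0.0473 and an adjusted p of 0.99997 by limma.

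The clock repressors Per2, Ciart and Cry1 lay on the other side. Per2, a repressor of Bmal1 and Clock, read 3.77, 3.57 and 3.58 in NX-alfacalcidol and 1.92, 2.49 and 2.21 in NX-paricalcitol. Its difference of 1.43 ± 0.23 (log2, SE; 95% interval 0.94 to 1.92) is a 2.70-fold higher value and just missed the threshold (limma, adjusted p = 0.0571). That adjusted p ranged from 0.000643 to 0.489 over the alternative settings, and 7 of 26 took Per2 past the threshold. Ciart, a clock repressor that interacts with Bmal1, read 1.53, 2.13 and 1.37 in NX-alfacalcidol and -1.06, -0.997 and -1.19 in NX-paricalcitol. Ciart had the largest difference of the clock list, 2.76 ± 0.46 (log2, SE; 6.76-fold), at an adjusted p of 0.0754 by limma. Cry1, the partner of Per proteins, read 1.01, 1.09 and 0.27 in NX-alfacalcidol and -0.19, -0.51 and -0.10 in NX-paricalcitol, with no overlap and a difference of 1.06 ± 0.21 (SE; limma, adjusted p = 0.194).

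Other Per and Nr1d genes differed less. Per3 had a difference of 0.44 ± 0.17 (SE; limma, adjusted p = 0.88) and Per1 of 0.18 ± 0.16 (95% interval -0.18 to 0.53), both with all NX-alfacalcidol arrays above all NX-paricalcitol arrays. Nr1d1, which encodes the Bmal1 repressor REV-ERB alpha, read 3.54, 3.18 and 3.59 in NX-alfacalcidol and 2.82, 3.23 and 3.15 in NX-paricalcitol; the groups overlapped and the difference was 0.37 (95% interval -0.17 to 0.91). Its paralog Nr1d2 did not overlap, at a difference of 0.69 ± 0.22 (SE; limma, adjusted p = 0.683), nor did Bhlhe41, an E-box repressor, at 1.53 ± 0.41 (adjusted p = 0.474). Nr1d2, Bhlhe41 and Rora, and the output genes Klf9, Klf15, Fkbp5 and Nfil3, were chosen for naming after their values were seen. Rora, an activator of Bmal1, had a difference of 0.01. Over the 17 clock genes measured, 1 passed lower (Bmal1) and 0 passed higher, 13 had a positive difference, and the median was 0.19 beside 0.03 for all features. The arrays did not overlap for 10 of the 17: NX-alfacalcidol was above for 7, a side on which 5.97% of all features lay, and below for 3, against 3.99% of all features. The time of day of tissue collection by group is not given in the sources used here, and its part in the clock gene values was not tested.

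Wee1, the kinase that restrains entry into mitosis and an E-box target of the clock, was the clock output gene that passed. Its values were 4.34, 3.74 and 3.93 in NX-alfacalcidol, against 2.49, 2.82 and 2.52 in NX-paricalcitol. It rose 2.63-fold, a difference of 1.40 ± 0.19 (log2, SE; 95% interval 0.99 to 1.81; limma, adjusted p = 0.0298). The D-box factor Tef read 5.38, 5.58 and 5.39 in NX-alfacalcidol and 4.43, 4.42 and 3.95 in NX-paricalcitol, a difference of 1.18 ± 0.23 (SE; limma, adjusted p = 0.191). Dbp, a related D-box activator, read 8.08, 8.64 and 8.19 in NX-alfacalcidol and 6.61, 6.92 and 6.42 in NX-paricalcitol, a difference of 1.65 ± 0.45 (SE; limma, adjusted p = 0.474). Neither gene overlapped between the groups. Nfil3, which represses through the same D-boxes, had the opposite sign at -1.24 ± 0.49 (SE; limma, adjusted p = 0.908), with overlapping arrays. Of 9 clock output genes measured, 1 passed higher and 0 lower, 8 had a positive difference, and the median was 1.18. All NX-alfacalcidol arrays lay above all NX-paricalcitol arrays for 7 of the 9, against 5.97% of all features, and the list's median stayed between 1.02 and 1.26 under other scalings and without any one of the 6 arrays. Klf9, Tsc22d3 and Fkbp5, which also belong to the list of glucocorticoid induced genes, were among these 7.

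**Figure D2:**
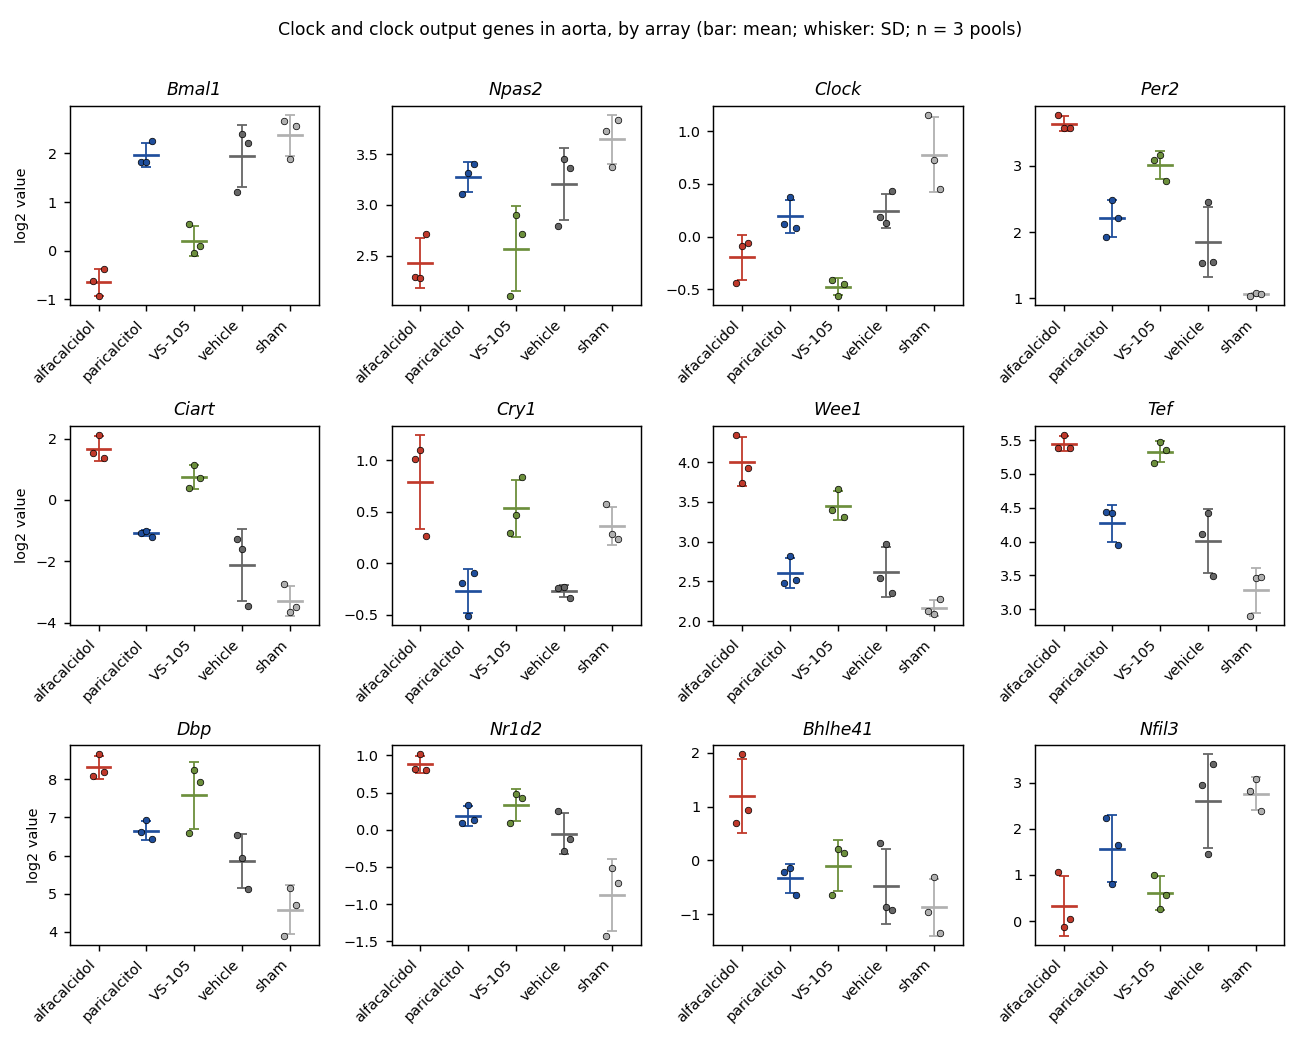
Log2 values of 12 clock and clock output genes on each array (points), with the group mean (bar) and SD (whisker), n = 3 pools per group, in NX-alfacalcidol, NX-paricalcitol, NX-VS-105, NX-vehicle and sham aortas. Bmal1 averages -0.65 in NX-alfacalcidol and 1.97 in NX-paricalcitol; Per2, Ciart, Wee1, Tef and Dbp are highest in NX-alfacalcidol, and sham has the lowest mean of each of these.

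The levels of the other groups place the pair. Per2 averaged 3.64 ± 0.11 in NX-alfacalcidol, 2.21 ± 0.28 in NX-paricalcitol, 3.01 ± 0.21 in NX-VS-105, 1.85 ± 0.53 in NX-vehicle and 1.06 ± 0.02 in sham aortas (log2, SD, n = 3 each). Ciart averaged 1.67 ± 0.40 in NX-alfacalcidol, -1.08 ± 0.10 in NX-paricalcitol, 0.74 ± 0.39 in NX-VS-105, -2.11 ± 1.17 in NX-vehicle and -3.30 ± 0.48 in sham aortas. Both genes therefore had the same order of means, with NX-VS-105 between the pair, although NX-paricalcitol and NX-vehicle lay within their spread for Per2. Against NX-vehicle, whose arrays both comparisons share, the difference of Ciart was 3.78 for NX-alfacalcidol (limma, adjusted p = 0.0148) and 1.02 for NX-paricalcitol (adjusted p = 0.329). For Wee1 it was 1.38 for NX-alfacalcidol (adjusted p = 0.0217) and -0.01 for NX-paricalcitol (adjusted p = 0.983), again by limma. Over all features, 7 passed for NX-alfacalcidol against NX-vehicle (0.0445%) and 0 for NX-paricalcitol against NX-vehicle (0%) by limma. In the paricalcitol comparison, 2325 of 15739 features had an unadjusted p under 0.05, more than the 733 between alfacalcidol and paricalcitol. The count of 0 therefore does not show that NX-paricalcitol and NX-vehicle were alike. The matching unadjusted count for NX-alfacalcidol is not given here.

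Of the other genes that passed, Arsi, which encodes arylsulfatase I, had the largest difference. Arsi read 0.94, 0.68 and 1.08 in NX-alfacalcidol, against 2.76, 3.55 and 3.48 in NX-paricalcitol. It was 5.13-fold lower in NX-alfacalcidol, a difference of -2.36 ± 0.33 (log2, SE; 95% interval -3.06 to -1.65; limma, adjusted p = 0.0298). NX-paricalcitol had the highest mean of Arsi of all 5 groups, at 3.26 ± 0.43, beside 0.90 ± 0.20 in NX-alfacalcidol, 0.90 ± 0.20 in NX-VS-105, 2.39 ± 0.66 in NX-vehicle and 1.57 ± 0.48 in sham aortas (SD, n = 3 each). Against the shared NX-vehicle arrays, the difference of Arsi was -1.48 for NX-alfacalcidol (limma, adjusted p = 0.107) and 0.87 for NX-paricalcitol (adjusted p = 0.288).

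Bcl3, an atypical IκB protein that works with NF-κB subunits in the nucleus, read 2.71, 2.61 and 2.41 in NX-alfacalcidol, against 3.49, 3.75 and 3.34 in NX-paricalcitol. The difference was -0.95 ± 0.13 (log2, SE; 1.93-fold lower; limma, adjusted p = 0.0298). NX-VS-105 arrays read 2.59, 2.59 and 2.62, near the NX-alfacalcidol arrays, and NX-vehicle averaged 3.34 ± 0.16 and sham 3.12 ± 0.07. Evi2a, a membrane protein gene first found at a viral integration site, read 0.39, 0.48 and 0.53 in NX-alfacalcidol, against 1.59, 1.98 and 1.57 in NX-paricalcitol. It was 2.37-fold lower, a difference of -1.25 ± 0.18 (SE; limma, adjusted p = 0.0298). The feature LOC498276, to which no gene name could be given, read 1.56, 1.40 and 1.54 in NX-alfacalcidol, against 3.12, 3.39 and 2.89 in NX-paricalcitol. It was 3.10-fold lower (-1.63 ± 0.23, SE; limma, adjusted p = 0.0298), and all other groups averaged above 2.7.

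Slc7a13, an amino acid transporter gene known from kidney, was 1.89-fold higher in NX-alfacalcidol than in NX-paricalcitol, at low values. It read -0.15, 0.08 and -0.35 in NX-alfacalcidol, against -0.99, -1.10 and -1.08 in NX-paricalcitol, a difference of 0.92 ± 0.14 (log2, SE; limma, adjusted p = 0.0473). The other groups averaged between the pair, at -0.91 in NX-VS-105, -0.49 in NX-vehicle and -0.53 in sham aortas. Against the shared NX-vehicle arrays, the difference of Slc7a13 was 0.35 for NX-alfacalcidol (limma, adjusted p = 0.243) and -0.57 for NX-paricalcitol (adjusted p = 0.259). Slc7a13 stayed past the threshold under 5 of the 25 alternative settings that gave a value, the fewest of the 7. Its adjusted p ranged from 0.002 to 0.489 over these settings. Over the 3 pairs that the compounds form, p adjusted over all features and pairs together was 0.0408 for Bmal1, Wee1, Bcl3, Arsi and Evi2a, 0.0419 for LOC498276 and 0.0594 for Slc7a13. Adjusted within each pair, 5 features passed between NX-alfacalcidol and NX-VS-105 (0.0318%) and 3 between NX-paricalcitol and NX-VS-105 (0.0191%), where Arsi and Bcl3 were among the 3.

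**Figure D3:**
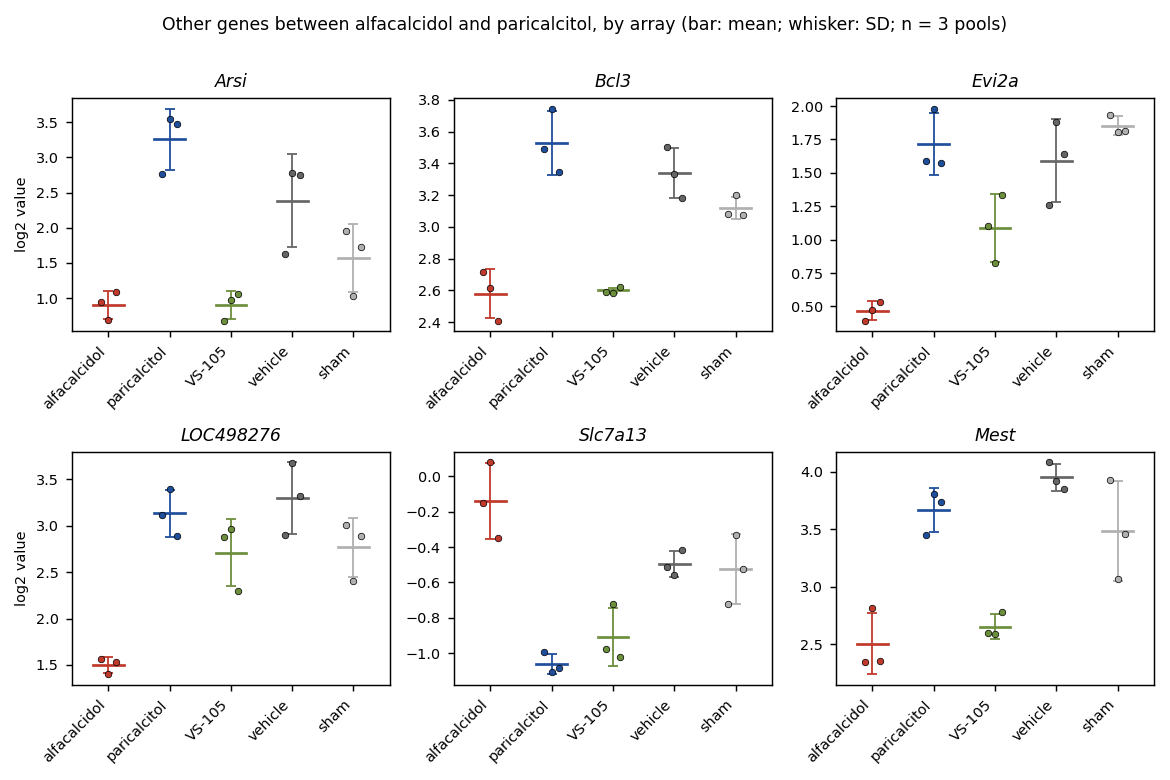
Log2 values of Arsi, Bcl3, Evi2a, LOC498276, Slc7a13 and Mest on each array (points), with the group mean (bar) and SD (whisker), n = 3 pools per group, in NX-alfacalcidol, NX-paricalcitol, NX-VS-105, NX-vehicle and sham aortas. Arsi averages 0.90 in NX-alfacalcidol and 3.26 in NX-paricalcitol, and the arrays of these groups do not overlap in any of the 6 panels.

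The features next in rank were taken by p until 8 genes per direction were named. Mest, an imprinted gene of the hydrolase fold family, read 2.35, 2.81 and 2.35 in NX-alfacalcidol and 3.45, 3.81 and 3.74 in NX-paricalcitol, a difference of -1.16 ± 0.20 (SE; limma, adjusted p = 0.0902). The leukocyte genes Fcmr, Ccl6 and Ncf4 were also among the 8 with a lower value in NX-alfacalcidol. Fcmr, the Fc receptor for IgM, had a difference of -0.97 ± 0.16 (adjusted p = 0.0808), Ccl6, a chemokine of rodents, of -1.05 ± 0.18 (adjusted p = 0.0902) and Ncf4, a cytosolic subunit of the phagocyte NADPH oxidase, of -0.82 ± 0.15 (SE; limma, adjusted p = 0.111). Median centring of each array took Ncf4 to an adjusted p of 0.0318 and Mest to 0.0361, and Ncf4 ranged from 0.00786 to 0.598 and Mest from 0.000603 to 0.533 over all settings. On the side of higher values stood Sp2, a zinc finger factor, at 0.70 ± 0.14 (limma, adjusted p = 0.194) and Zbtb16, a zinc finger repressor induced by glucocorticoids, at 1.75 ± 0.38 (adjusted p = 0.279). None of these 6 genes overlapped between the groups, which largely follows from their choice by p in this same comparison. Of all features, 5.97% lay above and 3.99% below without overlap.

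Macrophage genes had lower values in NX-alfacalcidol, and none passed. Of 15 macrophage markers measured, 0 passed and 0 had a positive difference, and 13 had all NX-alfacalcidol arrays below all NX-paricalcitol arrays, a side on which 3.99% of all features lay. The median of the list was -0.80, and it stayed between -0.87 and -0.69 under other scalings and without any one of the 6 arrays. The mean level of the 15 markers was 2.94 to 3.03 on NX-alfacalcidol arrays and 3.52 to 3.87 on NX-paricalcitol arrays, beside group means of 3.56 in NX-VS-105, 3.54 in NX-vehicle and 2.93 in sham aortas. By group mean, NX-alfacalcidol thus lay near sham and NX-paricalcitol near NX-vehicle. Single arrays spread from 3.20 to 3.91 in NX-vehicle, from 3.18 to 3.97 in NX-VS-105 and from 2.69 to 3.05 in sham. Fcer1g, a signalling chain of Fc receptors, read 3.33, 3.06 and 3.22 in NX-alfacalcidol and 4.04, 4.33 and 3.94 in NX-paricalcitol (-0.90 ± 0.20, SE; limma, adjusted p = 0.31). Adgre1, which encodes a surface receptor of macrophages, read 0.59, 0.12 and 0.61 in NX-alfacalcidol and 1.495, 1.54 and 1.33 in NX-paricalcitol (-1.02 ± 0.25, SE; limma, adjusted p = 0.433). In whole aorta, fewer cells of a type and less RNA per cell cannot be told apart.

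**Figure D4:**
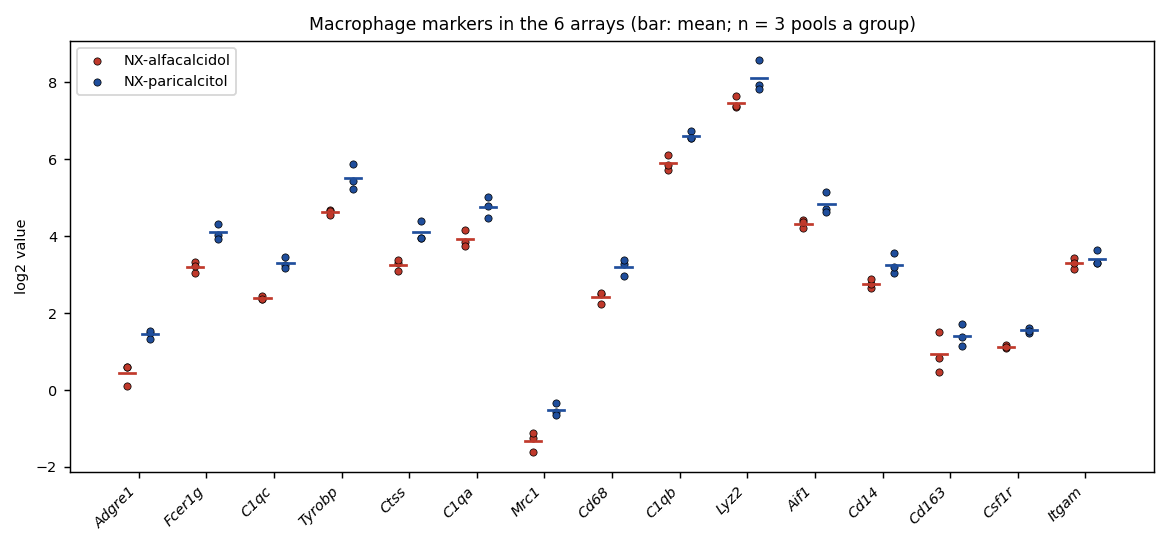
Log2 values of the 15 macrophage markers measured on the 6 arrays, NX-alfacalcidol (left, red) and NX-paricalcitol (right, blue) for each gene; points are arrays, bars are means, n = 3 pools each. The groups overlap for Cd163 and Itgam and not for the other 13 genes.

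The other immune lists had medians on the same side. In antigen presentation, 1 of 13 genes had a positive difference, and the median was -0.45 (-0.61 to -0.29 under other scalings or without any one of the 6 arrays). Cd74, the invariant chain of class II molecules, read 4.73, 4.69 and 4.38 in NX-alfacalcidol and 5.73, 6.17 and 4.98 in NX-paricalcitol (-1.03 ± 0.24, SE; limma, adjusted p = 0.352), and RT1-DMa, a class II loading factor, had a difference of -0.74 (adjusted p = 0.566). In the cytokine, chemokine and adhesion list, 2 of 19 were positive and the median was -0.41. Ccl2, the monocyte chemoattractant, read 1.01, 1.29 and 1.31 in NX-alfacalcidol and 2.34, 4.03 and 2.28 in NX-paricalcitol, where array 2 stood well above the other 2 arrays (-1.68 ± 0.43, SE; limma, adjusted p = 0.451). The inflammatory cytokine Il1b overlapped between groups, at a difference of -1.13 ± 0.38 (SE; limma, adjusted p = 0.762). Complement and coagulation genes had 3 of 20 positive and a median of -0.41 (-0.61 to -0.26 over the same alternatives). Procr, the endothelial protein C receptor, had a difference of -0.98 (limma, adjusted p = 0.497) and F13a1, a coagulation factor chain also made by macrophages, of -0.78 (adjusted p = 0.489). Ptprc, the CD45 antigen shared by leukocytes, read 0.19, 0.24 and -0.07 in NX-alfacalcidol and 1.30, 1.41 and 0.83 in NX-paricalcitol (-1.06 ± 0.23, SE; limma, adjusted p = 0.277). Ptprc was listed with T and B cell genes, of which 1 of 7 was positive, with a median of -0.60 that ranged from -1.02 to -0.19 as arrays were left out in turn. This median was -0.27 with all arrays raised to the floor of -2.71. Neutrophil genes had 1 of 6 positive and a median of -0.37 (-0.59 to -0.16 under other scalings or without any one of the 6 arrays), and interferon response genes had 8 of 19 positive and a median of -0.11, which turned to 0.08 without NX-paricalcitol array 2. None of the members of these lists passed.

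Platelet markers also had lower values in NX-alfacalcidol. Of 7 measured, 0 passed, 1 had a positive difference and the median was -0.31 (-0.37 to -0.19 over those alternatives). Pf4, platelet factor 4, read 3.05, 3.48 and 3.25 in NX-alfacalcidol and 4.72, 3.95 and 4.52 in NX-paricalcitol (-1.14 ± 0.31, SE; limma, adjusted p = 0.474), and averaged 6.28 in sham aortas. Treml1, a receptor of platelet granules, had a difference of -0.67 (adjusted p = 0.497). The mean level of the platelet list was 0.56 to 0.73 on NX-alfacalcidol arrays and 0.90 to 1.24 on NX-paricalcitol arrays, while that of 7 erythroid markers overlapped, at 3.25 to 5.66 on NX-alfacalcidol and 3.36 to 5.07 on NX-paricalcitol arrays. The part of blood in the leukocyte values was not tested.

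Among vasoactive genes, Edn1, which encodes the vasoconstrictor endothelin 1, read -1.10, -1.04 and -1.49 in NX-alfacalcidol and 0.18, -0.37 and -0.41 in NX-paricalcitol. The groups did not overlap, at a difference of -1.01 ± 0.24 (log2, SE; 95% interval -1.52 to -0.49; limma, adjusted p = 0.352). Its receptor gene Ednra had a difference of -0.10 (95% interval -0.52 to 0.32), and Nos3, the endothelial nitric oxide synthase, of -0.37 (95% interval -0.93 to 0.19), both with overlapping arrays. Tbxas1, thromboxane synthase, had a difference of -0.76 (limma, adjusted p = 0.838). Of 24 vasoactive genes measured 0 passed and 12 were positive, with a median of -0.04. Endothelial markers had 4 of 18 positive and a median of -0.20 (-0.39 to -0.02 under other scalings or without any one of the 6 arrays), with no member passing.

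Genes of the vessel wall's own cells and matrix gave no call. Contractile smooth muscle genes had 15 of 17 positive differences with a median of 0.19 (0.05 to 0.25 over those alternatives), and 0 passed. Acta2, smooth muscle actin, read 9.06, 9.46 and 9.29 in NX-alfacalcidol and 9.12, 8.91 and 9.22 in NX-paricalcitol, and the smooth muscle myosin Myh11 read 9.32, 9.59 and 9.69 in NX-alfacalcidol and 9.14, 9.17 and 9.24 in NX-paricalcitol. The difference was 0.19 for Acta2 (95% interval -0.23 to 0.60) and 0.35 for Myh11 (95% interval -0.09 to 0.79). Fibroblast markers had 1 of 16 positive, where 57.8% of all features were, and a median of -0.32. For 7 of the 16 all NX-alfacalcidol arrays lay below all NX-paricalcitol arrays, against 3.99% of all features. Pdgfra, a growth factor receptor of fibroblasts, had a difference of -0.59 ± 0.18 (SE; limma, adjusted p = 0.629) and Thy1 of -0.96 ± 0.38 (adjusted p = 0.899). In the collagen and elastic matrix list 5 of 23 were positive and the median was -0.16. Fbln2, a matrix glycoprotein, had a difference of -0.59 (limma, adjusted p = 0.588), Loxl2, a collagen crosslinking oxidase, of -0.68 (adjusted p = 0.834), and Col1a1 of -0.18 (95% interval -0.73 to 0.37).

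Calcification genes, a concern of vitamin D therapy in uremia, gave no call. Of 17 measured, 8 were positive and the median was -0.03. Bmp4, a bone morphogenetic protein, read 3.56, 3.70 and 3.70 in NX-alfacalcidol and 4.49, 4.38 and 4.56 in NX-paricalcitol, with no overlap and a difference of -0.82 ± 0.17 (SE; limma, adjusted p = 0.194). Spp1, osteopontin, overlapped between groups and varied more among the NX-paricalcitol arrays, at 8.26, 8.61 and 8.29 in NX-alfacalcidol and 8.19, 9.91 and 9.23 in NX-paricalcitol (-0.72, 95% interval -2.42 to 0.97). Mgp, a calcification inhibitor, had a difference of 0.08 (95% interval -0.54 to 0.70), which took a negative sign after quantile normalization, at -0.13. In a list of extracellular proteases and their inhibitors, the inhibitor Timp4 read 3.88, 3.95 and 3.49 in NX-alfacalcidol and 3.04, 2.51 and 2.35 in NX-paricalcitol (1.14 ± 0.26, SE; limma, adjusted p = 0.336).

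Genes of vitamin D action itself gave no call either. Vdr, the receptor of both compounds, read -0.76, -0.50 and -0.96 in NX-alfacalcidol and -0.74, -1.19 and 0.15 in NX-paricalcitol. The groups overlapped, and the difference of -0.15 (95% interval -0.92 to 0.63) turned to 0.22 without NX-paricalcitol array 3. Rxra, the receptor's partner, had a difference of 0.36 (95% interval -0.10 to 0.82), Cyp27b1, the enzyme that makes calcitriol, of 0.12 (95% interval -0.20 to 0.43) and Pth1r, the parathyroid hormone receptor, of -0.28 (95% interval -0.65 to 0.08). Of 14 vitamin D pathway genes measured, 0 passed, 10 were positive and the median was 0.05. Their differences ranged from -0.28 to 2.12, and none had an unadjusted p under 0.05 by limma. The gene with the highest difference is not named here. Cyp24a1, the enzyme that breaks the hormone down, was looked up, but no feature of the value table could be matched to it.

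Most cell cycle genes had lower values in NX-alfacalcidol, although the mean level of the list overlapped between the groups. Of 23 replication and mitosis genes 0 passed and 3 were positive, with a median of -0.57 and a range from -1.28 to 0.21. For 5 of the 23 all NX-alfacalcidol arrays lay below all NX-paricalcitol arrays, against 3.99% of all features. Plk1, a mitotic kinase, read 1.63, 1.15 and 1.54 in NX-alfacalcidol and 1.71, 2.40 and 2.69 in NX-paricalcitol (-0.83 ± 0.28, SE; limma, adjusted p = 0.794). The group mean of the list was 0.77 in NX-VS-105, 0.35 in NX-vehicle and -0.38 in sham aortas, against 0.43 to 0.83 on NX-alfacalcidol and 0.78 to 1.57 on NX-paricalcitol arrays.

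Glucocorticoid induced genes, a list that shares Per1, Klf9, Tsc22d3 and Fkbp5 with the clock lists, had 10 of 13 positive differences and a median of 0.64. None passed, and 7 had all NX-alfacalcidol arrays above all NX-paricalcitol arrays, against 5.97% of all features. Zbtb16 read 2.28, 0.99 and 1.60 in NX-alfacalcidol and -0.42, -0.10 and 0.13 in NX-paricalcitol. Tsc22d3, a leucine zipper protein induced by glucocorticoids, read 5.24, 5.86 and 4.74 in NX-alfacalcidol and 4.59, 3.71 and 3.39 in NX-paricalcitol (1.39 ± 0.37, SE; limma, adjusted p = 0.47). Fkbp5, a co-chaperone of the glucocorticoid receptor, read 4.96, 4.26 and 4.25 in NX-alfacalcidol and 2.90, 3.07 and 2.78 in NX-paricalcitol (1.58 ± 0.52, SE; limma, adjusted p = 0.762). In the other groups Fkbp5 varied between arrays, from 2.16 to 5.21, and it was highest on NX-VS-105 array 1. The median of the list was 0.27 to 0.36 without NX-paricalcitol array 2 or 3 or NX-alfacalcidol array 1 or 2, and 0.64 without either of the other 2 arrays.

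Intestinal epithelium markers had a median difference of 1.42 with 15 of 17 positive, at values close to the lowest that arrays gave. With all arrays raised to the floor of -2.71 the median was 0.18. Cldn3, a tight junction protein, read -3.39, -2.45 and -2.44 in NX-alfacalcidol and -4.92, -4.93 and -5.02 in NX-paricalcitol (limma, adjusted p = 0.838). None of the members passed.

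**Figure D5:**
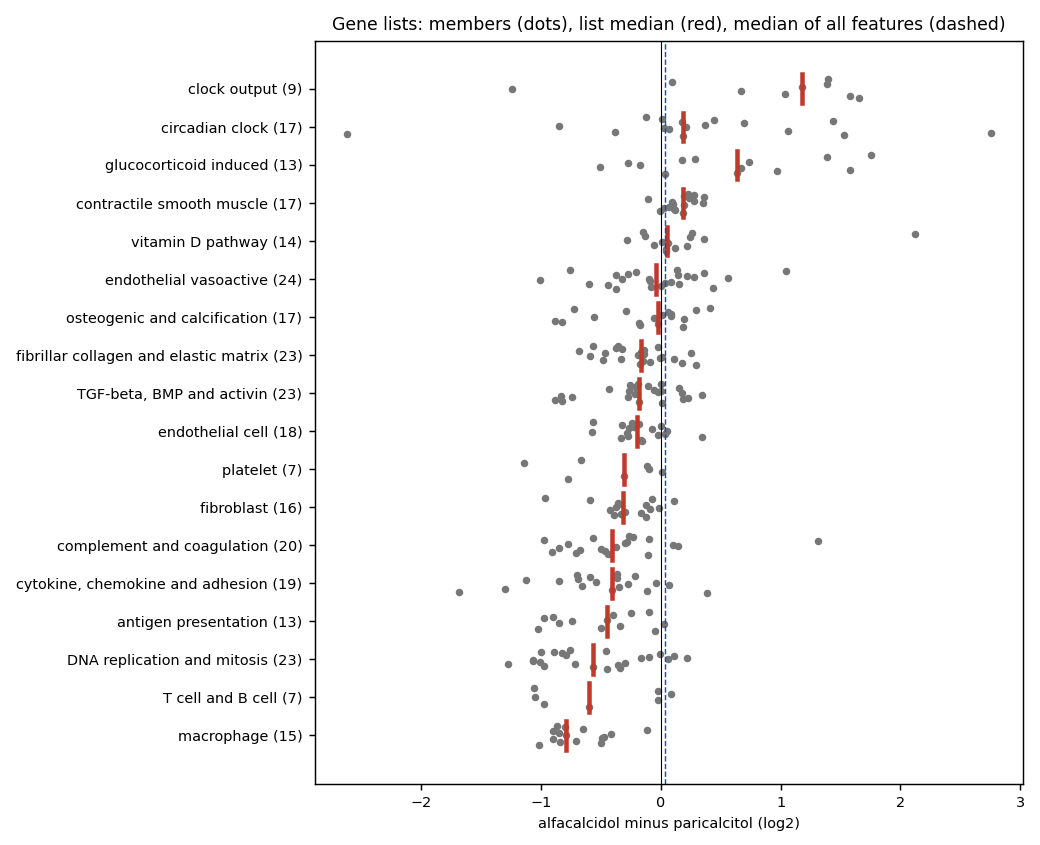
Alfacalcidol minus paricalcitol (log2) for the measured members of 18 gene lists, 1 dot per gene and the number of genes in brackets, with the list median in red and the median of all features (0.03) dashed. The 18 were picked from 42 lists after their values were seen, and intestinal epithelium, with a median of 1.42, is not among them; of the lists plotted, clock output lies highest, with a median of 1.18, and macrophage markers lowest, with a median of -0.80.

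The authors deposited 2 short lists that set these compounds apart by their changes against sham, chosen on the same arrays, so their values here are a description. All 10 genes of these lists also had a p under 0.01 for NX-vehicle against sham in the authors' deposited table. One list holds 7 genes with a p against sham above 0.01 for alfacalcidol alone. These p-values describe the members, and the authors' full rule for the lists is not given here. For Trpm8, a cold-sensing ion channel, the authors' deposited table gives a p against sham of 0.0701 for alfacalcidol and 0.000621 for paricalcitol. Trpm8 read 1.01, 1.36 and 0.49 in NX-alfacalcidol and 0.20, -1.70 and 0.29 in NX-paricalcitol, a difference of 1.36 ± 0.48 (SE; limma, adjusted p = 0.834), with sham at 2.10. NX-paricalcitol array 2 lay far below the other 2 arrays of its group, and the difference of Trpm8 was 0.71 without it and 1.16 to 1.71 without any other of the 6 arrays. Xkr6 had a difference of 0.50 ± 0.20 (limma, adjusted p = 0.914), Rap1gap2 of 0.47, Ms4a4a of -0.75 and St6galnac2 of -0.60. Gpnmb had a difference of -0.51 and LOC683212, with overlapping arrays, of 0.15. The other holds Srcrb4d, Id1 and Abra, whose p against sham in the authors' deposited table lies above 0.01 for paricalcitol and below it for alfacalcidol, with differences of -0.82, 0.34 and 0.32. Of the 10 genes, 0 passed by limma between alfacalcidol and paricalcitol; Trpm8 and Xkr6 had an unadjusted p under 0.05.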

How the data were processed

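Aortic RNA of 15 pools of 2 rats was hybridised to one-colour Agilent arrays (Cy3, Low-Input Quick Amp, per the labels' protocols). The deposited value table holds log2 values for 15739 features; Partek 6.0 is named in the submitters' processing notes, and the sources used here do not give background correction, scaling or how features were chosen. The authors' deposited sheets give a p-value and a signed fold change against sham per gene, and group means of the deposited values gave those folds back. Names came from a rat RefSeq gene table, through a current symbol for 9187 features and an older one for 1555; 23 fitted more than 1 gene and 4974 none.

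Group means of all 15 arrays were fitted with limma 3.58.1 (lmFit, eBayes) in R 4.3.3 with 10 residual degrees of freedom, and alfacalcidol minus paricalcitol was tested two-sided with Benjamini-Hochberg adjustment over all features. The threshold was an adjusted p of 0.05. The p-values set a difference of group means against a spread between pools. That spread was taken over all 5 groups, including those outside the pair compared, and was moderated across features by eBayes. With 3 arrays per group the precision is limited. Genes were named as the 12 largest differences per direction among passing features with a symbol, filled by smallest p to 8, plus up to 3 passing members (or the 2 of smallest p) of each of 42 gene lists, 24 genes looked up, and the authors' lists. Some of the genes and lists so selected are not reported here. The contrast, the lists and these rules were chosen with earlier results of these data known. Alternatives covered scaling, moderation, array weights, a floor, a low-value filter, replicate blocks and leaving out arrays. The test was also run on simulated data, with independent normal values and the same spread in each group. Such data lack the outlying arrays and the floor of the real arrays, so they do not show how the test behaves with these. The results of that run are not given here.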

Additional observations from a re-analysis of the deposited data

How the results depend on the processing

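The count of 7 passing features between NX-alfacalcidol and NX-paricalcitol was 10 after median centring, 9 with a common floor, 7 with trend and robust estimation or with only the 13281 features of mean above 0, and 6 adjusted over the 3 pairs of compounds. It was 11 after quantile normalization, 0 with the 6 arrays alone, 0 without moderation (689 features at an unadjusted p under 0.05 by limma), and 231 with array weights, where the estimate of weights stopped before convergence and gave NX-vehicle array 3 a weight of 18.2. The authors' rule, an unadjusted p under 0.01 and at least 2-fold, gave 69, of which 28 were higher and 41 lower. Leaving out 1 array gave 0 to 9. Numbered arrays of the 2 groups did not pair: correlations of same-numbered deviations were 0.147, -0.176 and 0.171, and not every array correlated best with its own number. With a replicate block the count was 0 over 15 arrays (709 at an unadjusted p under 0.05 by limma, adjusted p of the 7 from 0.0691 to 0.0775) and 0 over 6 arrays (900 at an unadjusted p under 0.05). The sign of the 7 differences held in every setting run. Mgp turned to -0.13 after quantile normalization, -0.084 without NX-paricalcitol replicate 1 and -0.022 without NX-alfacalcidol replicate 2, and ranged from -0.084 to 0.257 when 1 array was left out. Vdr turned to 0.2235 without NX-paricalcitol replicate 3, in a range from -0.4453 to 0.2235. The causes were not tested. With 3 pools a group and a common floor of -2.71, differences among low values are limited by the arrays' lowest signals.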
